A study of Mus musculus with 2 samples.

Results

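Folr2 Cbr2 macrophages are C1q-expressing tumour macrophages that carry transcripts of Folr2, Cbr2 or Fcrls, and 484 of them were found among 25200 barcodes. A barcode was a member when C1qa, C1qb and C1qc together made at least 0.1% of its UMIs (unique molecular identifiers, each standing for 1 counted transcript), Cd3d, Cd3e and Cd3g together had at most 1 UMI, Folr2, Cbr2 and Fcrls together had at least 3 and Mki67 and Top2a together had at most 1. The same barcodes with at most 2 UMIs of Folr2, Cbr2 and Fcrls are called the other C1q-positive cells. The Folr2, Cbr2, Fcrls, C1q, Cd3, Mki67 and Top2a values were used to choose the cells: members were chosen by these measured values, which are given only as a description.

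The cells came from subcutaneous MC38 tumours, grown from a mouse colon carcinoma line in C57BL/6 mice labelled WT. The PBM group received pulsed photobiomodulation, a light treatment, daily from day 7, and the control group carries no treatment label. Tumours of both groups were taken on day 14, cells were sorted for CD45, the surface protein of leukocytes, and the sorted cells of a condition were pooled into 1 library. The number of mice in each pool is not given in the sources used here, so each group is 1 sample, no test was made between or within groups, and every interval below covers counting error only.

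Tissue-resident macrophages settle in organs before and after birth, and in mice they clear dying cells, handle iron and lipids and secrete growth factors and chemokines. Folr2 encodes folate receptor beta, Cbr2 a carbonyl reductase and Fcrls an Fc receptor-like scavenger molecule, and all 3 mark resident-type macrophages in several mouse tissues. In growing tumours such cells lie beside macrophages that derive from Ly6c2-expressing, Ccr2-expressing blood monocytes. C1qa, C1qb and C1qc encode the chains of C1q, the complement component that macrophages make.

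The RefSeq promoter windows of the 3 genes that chose the cells are shown because every value below depends on their transcripts. Each window runs from 250 bases before to 50 bases after the annotated start in GRCm38.p6, the assembly that mm10 names, and reads 5′ to 3′ on the gene's strand. The Folr2 windows are chr7:101857141-101857440 and chr7:101845282-101845581, the Cbr2 window is chr11:120731972-120732271 and the Fcrls window is chr3:87263475-87263774, all on the minus strand. Capitals mark GAGGAA, the core that PU.1 binds, and TGCTGA, a half-site of Maf factors, on either strand. The 2 motifs can share bases with each other.
Folr2 start 1: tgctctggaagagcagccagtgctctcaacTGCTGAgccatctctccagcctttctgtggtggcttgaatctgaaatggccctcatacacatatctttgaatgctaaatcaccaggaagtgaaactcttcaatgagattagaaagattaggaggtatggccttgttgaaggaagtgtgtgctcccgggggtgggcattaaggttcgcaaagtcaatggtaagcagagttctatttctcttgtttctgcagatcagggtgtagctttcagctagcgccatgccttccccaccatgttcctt
Folr2 start 2: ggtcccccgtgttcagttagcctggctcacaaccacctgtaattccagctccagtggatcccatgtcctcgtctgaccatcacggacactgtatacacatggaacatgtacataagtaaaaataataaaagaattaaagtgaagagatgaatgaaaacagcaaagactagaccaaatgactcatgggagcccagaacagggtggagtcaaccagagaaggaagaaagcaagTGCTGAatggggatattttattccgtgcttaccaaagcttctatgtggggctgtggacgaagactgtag
Cbr2: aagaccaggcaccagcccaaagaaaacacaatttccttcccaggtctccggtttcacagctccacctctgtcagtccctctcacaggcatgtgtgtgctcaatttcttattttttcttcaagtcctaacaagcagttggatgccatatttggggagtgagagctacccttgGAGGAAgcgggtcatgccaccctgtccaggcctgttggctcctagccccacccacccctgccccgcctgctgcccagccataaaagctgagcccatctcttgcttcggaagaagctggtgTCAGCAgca
Fcrls: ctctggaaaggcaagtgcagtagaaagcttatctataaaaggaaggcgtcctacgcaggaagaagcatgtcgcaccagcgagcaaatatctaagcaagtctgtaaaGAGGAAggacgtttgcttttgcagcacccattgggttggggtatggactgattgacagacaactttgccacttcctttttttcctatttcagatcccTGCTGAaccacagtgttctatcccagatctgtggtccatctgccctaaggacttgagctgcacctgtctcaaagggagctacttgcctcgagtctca
GAGGAA or its complement was present once in the Cbr2 window and once in the Fcrls window and in neither Folr2 window. TGCTGA or its complement was present once in each of the 4 windows. Of 32851 such windows in the table, 28.3% held GAGGAA and 19.5% held TGCTGA. Of the 30 resident macrophage genes listed for this work, 23 had a window. Counted per gene over all of its windows, 17 of those 23 held GAGGAA, against 31.3% of 27025 genes, and 7 held TGCTGA, against 21.7% of genes. These matches are a description of letters and say nothing of what binds there.

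The members were all in the control library. The PBM library held 0 of 13962 barcodes, which allows a share of up to 0.0215%, and the control library held 484 of 11238 barcodes, or 4.31% (exact Clopper-Pearson 95% interval 3.94 to 4.70). The C1q-positive barcodes as a whole were also few in the PBM library, at 38 barcodes or 0.272% (0.193 to 0.373), against 2436 or 21.7% (20.9 to 22.45) in the control library. The libraries also differed in other cells: barcodes gated as B cells numbered 4065 of 13962 in the PBM library and 204 of 11238 in the control library, so a share of all barcodes has a different makeup beneath it. With 1 library per condition, sorting, loading and treatment cannot be told apart. Among C1q-positive non-cycling barcodes, members were 0 of 37 in the PBM library, which allows up to 8.11%, and 484 of 2197 in the control library, or 22.03% (20.3 to 23.8).

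The C1q-positive PBM barcodes were shallower, with a median of 2172 UMIs in the 37, against 11136.5 in the 484 control members and 6114 in the 1713 other C1q-positive control cells. With each C1q-positive barcode thinned to 2000 UMIs, 0 of 19 PBM barcodes held any UMI of the 3 genes, which allows up to 15.8%, against 498 of 1909 control barcodes, or 26.1% (24.1 to 28.1). At this number of PBM barcodes a share of C1q-positive cells under 8.11% was not detectable, and the share of all barcodes was lower than in the control library by 4.31 percentage points. The whole PBM library held 11 Folr2, 3 Cbr2 and 29 Fcrls UMIs among 86159897, and 25 of the Fcrls UMIs lay in 1 barcode. The whole control library held 5154 Folr2, 3236 Cbr2 and 2732 Fcrls UMIs among 104673228. Of the 37 PBM barcodes, 17 carried a UMI of the B cell gene Cd79a and Cd79a stood at 370.2 UMIs per 1000000, against 5.77 in the 2197 control barcodes, so their identity as macrophages is not clean. Gene levels of PBM members could not be given, and the results that follow describe the control members.

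The 484 members were deep, with a median of 2562 genes, and C1q made a median of 1.00% of their UMIs, against 1742 genes and 0.401% in the other C1q-positive cells. Levels here are summed UMIs of a set of cells per 1000000 of that set's UMIs, with exact Poisson 95% intervals. The macrophage genes were present: Csf1r, the receptor for the growth factor that keeps macrophages alive, stood at 381.3 in members and 371.2 in the other cells. Adgre1, which encodes F4/80, stood at 113.7 in members and 52.3 in the other cells, and Ms4a7 at 467.9 and 146.7. Of the 484 members, Scrublet called 0 doublets, and 472 passed a check that limits T cell, NK, B cell, fibroblast, neutrophil and dendritic genes to 0.2% of UMIs; in the other cells it called 26 and 1375 of 1713 passed.

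Several genes that define long-lived resident macrophages in mouse tissues were rare: Timd4, a receptor for phosphatidylserine on dying cells, had a UMI in 2 members, Cd163, the haemoglobin scavenger receptor, in 33, and Lyve1, a hyaluronan receptor, in 27. Vsig4, a complement receptor of liver macrophages, had 15 UMIs in all, Slc40a1, the iron exporter, had 3, and Cd209b had 0. Lyve1 and Cd163 were nonetheless higher in members. Lyve1 stood at 26.6 UMIs per 1000000 in members and 0.504 in the other C1q-positive cells, a log2 ratio of 5.72 (4.65 to 7.06), and 6 of those 1713 cells carried it. Cd163 stood at 13.7 in members and 2.01 in the other cells, 18 of which carried it. Timd4 had 11 UMIs in members and 2 in the other cells, and Vsig4 15 and 2. The cells are called here by the genes that chose them.

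Folr2 was the most frequent of the genes that chose the cells. It had a UMI in 440 of 484 members, Cbr2 in 309 and Fcrls in 307. All 3 genes were seen together in 191 members (39.5%), Folr2 and Cbr2 in 92, Folr2 and Fcrls in 81 and Cbr2 and Fcrls in 17. Folr2 alone qualified 76 members, Fcrls alone 18 and Cbr2 alone 9. Members with all 3 genes had a median of 12502 UMIs, those with Folr2 and Cbr2 9361.5 and those with Folr2 alone 10084.

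The minimum of 3 UMIs cut through a gradient. The 80 members just inside it, with 3 UMIs, had Ccl8 at 431.2 (385.6 to 480.8), Mrc1 at 532.1 and H2-Aa at 1263, and the 129 cells just outside it, with 2 UMIs, had Ccl8 at 336.7 (306.9 to 368.6), Mrc1 at 370.4 and H2-Aa at 1603. Cxcl9 differed more between these neighbours, at 321.1 in the 80 members and 780.8 in the 129 other cells.

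Read over the whole table, 11985 genes had at least 20 UMIs in the pair of sets, and the median of their log2 ratios was -0.01. A log2 ratio of at least 1 was reached by 427 genes higher in members (3.56%) and by 504 lower (4.21%). Those percentages are the background for every count past 2-fold against the other C1q-positive cells. Among genes with at least 100 UMIs, at least 50 UMIs per 1000000 in either set and intervals that did not overlap, 1196 qualified and 120 of them passed 2-fold. The 15 largest in each direction that also passed 2-fold in lineage-checked cells are named, beside examples from the gene lists.

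Among the named genes, which reach at least 50 UMIs per 1000000 in either set, the largest ratios belonged to the secreted factors Ccl8 and Gas6. Ccl8, a CC chemokine that draws leukocytes, stood at 1169 UMIs per 1000000 in members (1142 to 1196) and 104.1 in the other C1q-positive cells (98.8 to 109.6), a log2 ratio of 3.49 (3.41 to 3.57). Gas6, the bridging ligand that ties phosphatidylserine on dying cells to the receptors Mertk and Axl, stood at 76.7 in members and 6.98 in the other cells, a log2 ratio of 3.46 (3.14 to 3.79). In T cells of the same library, which should lack both, Ccl8 stood at 17.0 and Gas6 at 1.29. The levels in members were far above this background for both genes.

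**Figure D1:**
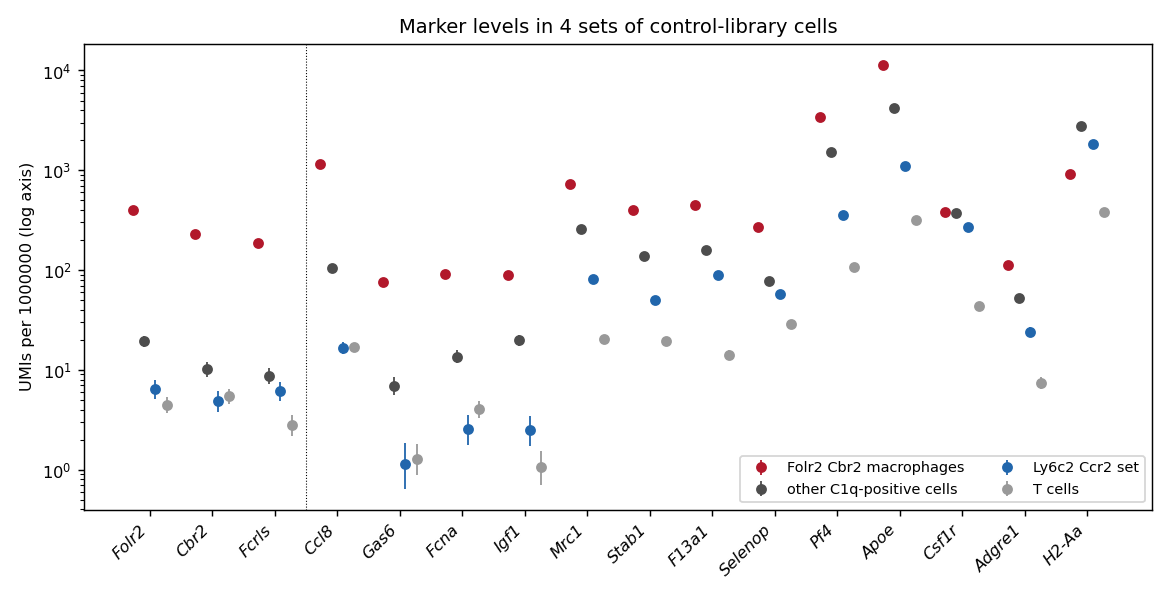
Levels of 16 genes in UMIs per 1000000 (log axis) in 4 sets of control cells: Folr2 Cbr2 macrophages, other C1q-positive cells, cells with at least 3 Ly6c2 or Ccr2 UMIs and little C1q, and T cells. Bars are exact Poisson 95% intervals, the genes left of the dotted line chose the cells, and Ccl8 stands at 1169 in the macrophages against 104.1 in the other C1q-positive cells while Csf1r differs little.

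Fcna, the ficolin A lectin of the complement pathway, stood at 91.3 in members and 13.6 in the other cells. Igf1, insulin-like growth factor 1, stood at 89.1 in members and 19.7 in the other cells. Among the other growth factors listed, Pdgfc stood at 20.0 in members and 3.38 in the other cells, and Gdf15, a stress-induced cytokine, at 36.6 and 8.78. The log2 ratio of Gdf15 was 2.06, but 1.11 with both sets limited to lineage-checked cells. The transforming growth factor Tgfb1 differed little, at 98.8 in members and 97.8 in the other cells, and Vegfa stood at 54.1 and 69.7. Of 18 growth factor genes measured, 6 were higher and 1 lower in members by at least 2-fold, the lower one being Fgf13, at 3.71 in members and 9.21 in the other cells.

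The other named genes higher in members fall into several roles. Retnla, which encodes the secreted protein RELMα of alternatively activated macrophages, had a log2 ratio of 2.85 (2.68 to 3.04), or 4.83 with members taken from 2 Folr2, Cbr2 and Fcrls UMIs. Selenop, a selenium carrier, stood at 270.0 in members and 77.7 in the other cells. Ccl12, another monocyte-drawing chemokine, stood at 522.1 in members and 131.8 in the other cells. Rnase4, a secreted ribonuclease, stood at 257.1 in members and 76.3 in the other cells.

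Timp2, an inhibitor of matrix metalloproteinases, stood at 732.9 in members and 183.7 in the other cells, but the T cells held 210.9 as well. Fcgrt, the neonatal Fc receptor that recycles antibody and albumin, stood at 185.1 in members and 40.1 in the other cells. The co-receptor Nrp1, the ubiquitin ligase Wwp1, the membrane proteins Pmp22 and Syngr1 and the protease inhibitor Serpinb6a had log2 ratios between 1.77 and 2.17. These genes were also higher in members against the Ly6c2 Ccr2 set and against the cells chosen for Nos2 and Cxcl9. The latter are 499 of the 1713 other C1q-positive cells, so they are not a separate comparison.

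**Figure D2:**
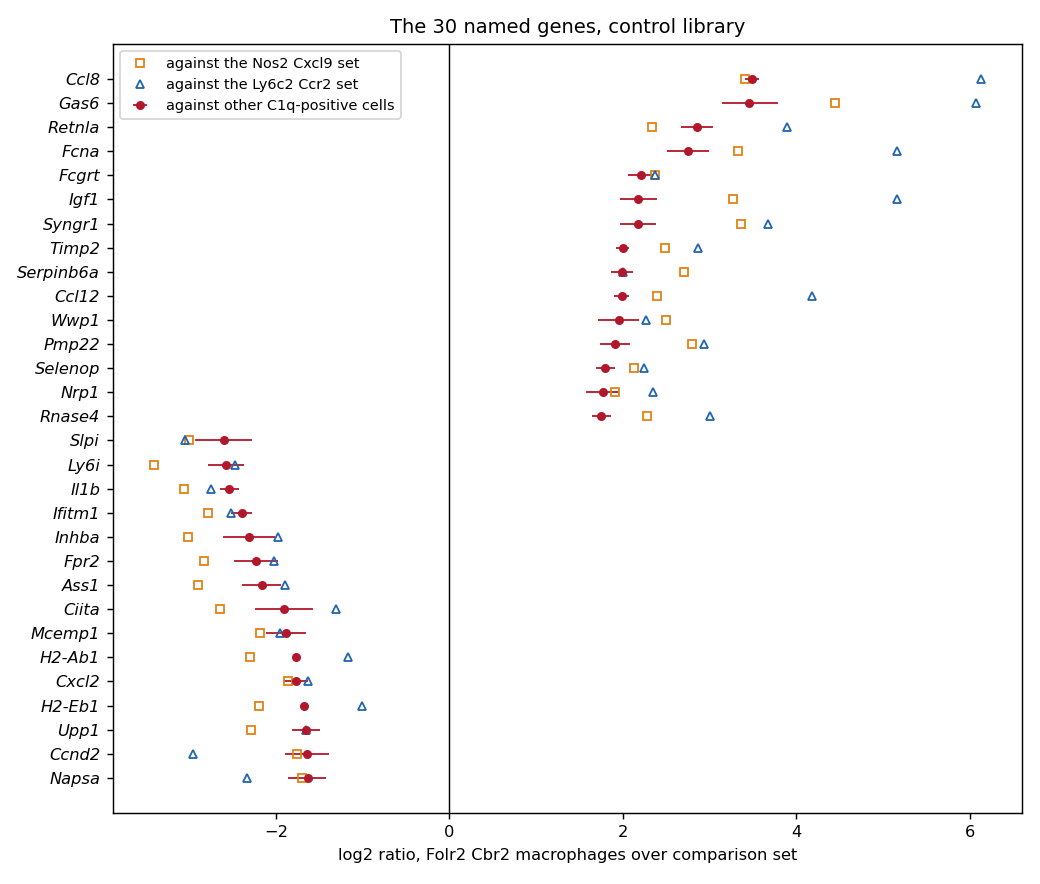
Log2 ratios of the 30 named genes, Folr2 Cbr2 macrophages over other C1q-positive cells (filled points with exact 95% intervals), over C1q-positive cells with at least 3 Nos2 or Cxcl9 UMIs (squares) and over the Ly6c2 Ccr2 set (triangles), all in the control library. Each gene lies on the same side of 0 in the 3 comparisons, from 3.49 for Ccl8 to -2.60 for Slpi against the other C1q-positive cells. The cells with Nos2 or Cxcl9 UMIs are part of the other C1q-positive cells.

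Genes of inflammation and of young monocytes led the other direction. Il1b, the inflammasome cytokine, stood at 115.7 UMIs per 1000000 in members (107.4 to 124.5) and 672.8 in the other C1q-positive cells (659.2 to 686.6), a log2 ratio of -2.54. The T cells held 104.7, so the level in members lies near the background of the library. Slpi, a secreted protease inhibitor, stood at 13.5 in members and 82.2 in the other cells. Ly6i, a surface protein of the Ly6 family, stood at 32.5 in members and 193.6 in the other cells.

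Inhba, the activin A subunit, Fpr2, a formyl peptide receptor, and Ass1, which resynthesises arginine from citrulline, had log2 ratios of -2.31, -2.23 and -2.16, with Inhba at -1.28 in barcodes ending in N1. The interferon-induced Ifitm1 stood at 94.9 in members and 498.7 in the other cells. Cxcl2, a neutrophil chemokine, stood at 77.8 in members and 264.6 in the other cells. Mcemp1, Upp1, the cyclin gene Ccnd2 and the aspartic protease gene Napsa had log2 ratios between -1.88 and -1.64.

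The MHC class II genes were lower in members together. Ciita, the master regulator of MHC class II, stood at 13.7 in members and 51.2 in the other cells, with H2-Ab1 at 1276 and 4366, H2-Eb1 at 634.1 and 2022 and H2-Aa at 921.4 and 2798. Of 10 MHC class II genes measured, 9 were lower in members by at least 2-fold and the list's median log2 ratio was -1.51. The exception was H2-DMa, a peptide-loading chaperone, at 260.7 in members and 422.8 in the other cells. B cells, which carry MHC class II at a high level, held 5117 for H2-Ab1 and T cells 562.0. MHC class I and its peptide loading genes differed less: the median over 19 genes was -0.36 and none passed 2-fold.

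**Figure D3:**
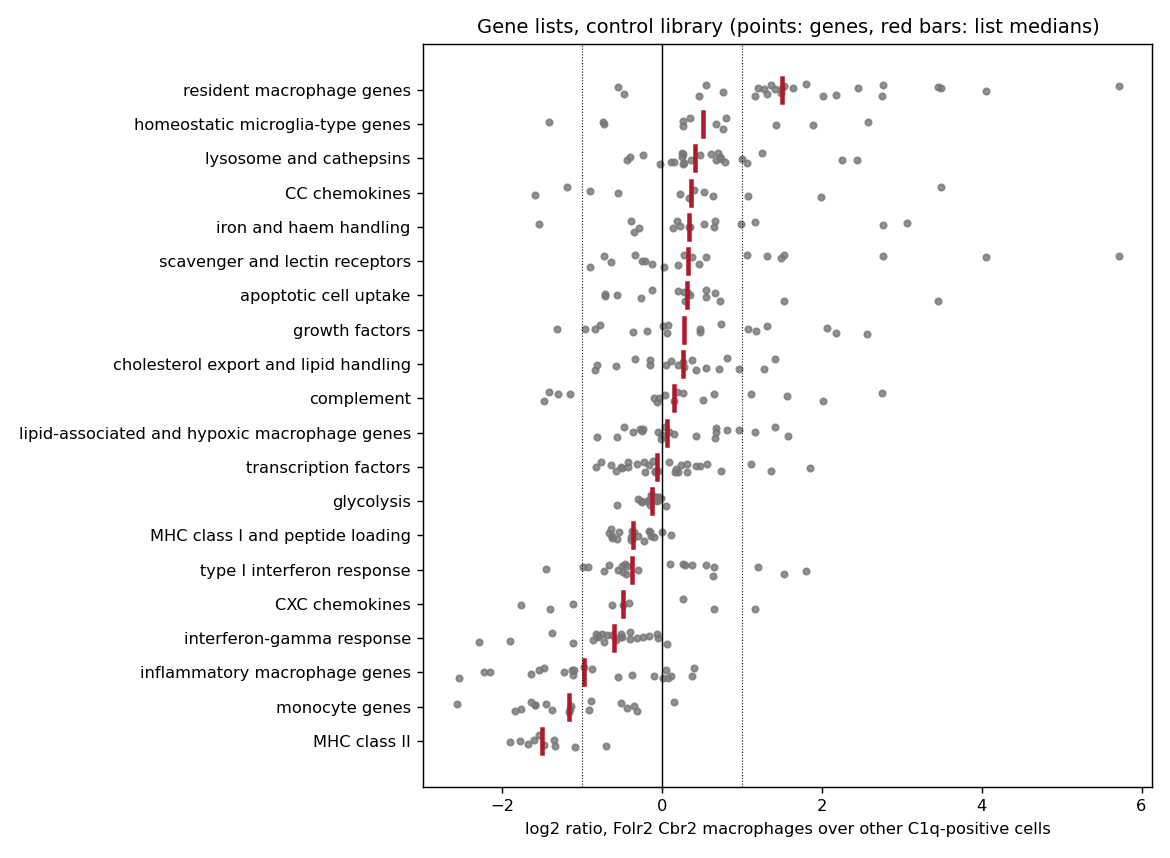
Log2 ratios of single genes (grey points) and list medians (red bars) for 20 gene lists, Folr2 Cbr2 macrophages over other C1q-positive cells of the control library, with dotted lines at 2-fold in either direction. The resident macrophage genes lie highest, with a median of 1.496, and the MHC class II genes lowest, with a median of -1.51.

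The resident macrophage list, without the genes that chose the cells, had 25 of 30 genes measured. Of these, 20 were higher in members by at least 2-fold and none lower, with a median log2 ratio of 1.496. The list and the members were chosen with earlier results of these data known, so these counts are a description. The cells chosen for Nos2 and Cxcl9 are part of the other C1q-positive cells. Against them, 6.19% of 10896 genes were higher and 3.72% lower past 2-fold. Of the list genes, 21 were higher and none lower. Against the Ly6c2 Ccr2 set, where 5.84% of 12449 genes were higher and 13.7% lower, 21 were higher and 2 lower. F13a1, the A chain of clotting factor XIII, stood at 445.0 in members and 157.8 in the other cells. Stab1, a scavenger receptor, stood at 400.7 in members and 139.3 in the other cells. Mrc1, the mannose receptor, stood at 723.4 in members and 258.6 in the other cells, and Pf4 at 3445 and 1541.

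The enzymes Hpgds, which makes prostaglandin D2, and Ltc4s, which makes leukotriene C4, stood at 39.8 and 26.6 in members and at 7.27 and 10.0 in the other cells. Against the list, the eosinophil chemokine Ccl24 stood at 140.8 in members and 206.4 in the other cells, and Hpgd had 8 UMIs in members. Several genes used for microglia were higher as well: Gpr34 stood at 14.2 in members and 2.37 in the other cells, Olfml3 at 34.5 and 9.35 and P2ry12, an ADP receptor, at 18.5 and 6.91. Of that list 3 of 12 were higher and 1 lower by at least 2-fold. Tmem119 was lower without passing 2-fold, at 76.0 in members and 126.6 in the other cells, and Sall1 had 0 UMIs in both.

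Receptors for debris differed from gene to gene. Of 20 scavenger and lectin receptors measured, 7 were higher and none lower in members by at least 2-fold, among them Stab1, Mrc1 and Clec10a. Msr1, scavenger receptor A, stood at 523.4 in members and 513.9 in the other cells, and Clec4n, which encodes dectin-2, at 443.2 and 731.2. Among 16 genes for uptake of apoptotic cells the receptor Mertk stood at 56.5 in members and 35.8 in the other cells, while its relative Axl stood at 40.9 and 67.3, and only the ligand Gas6 and Stab1 passed 2-fold.

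Lysosomal genes were mostly higher in members, with a median of 0.42 and 20 of 24 above 0, against 49.3% of all genes. Ctsb stood at 1851 in members and 778.5 in the other cells, Ctsk at 42.2 and 8.85 and the asparaginyl protease Lgmn at 1008 and 480.8. Ctsc, the activator of granule proteases, went the other way at 813.1 in members and 1104 in the other cells. Of the 24 genes, 4 were higher and none lower by at least 2-fold.

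Lipid and iron genes were uneven. Apoe, the lipid carrier, was among the most abundant transcripts of the members, at 11224 UMIs per 1000000, against 4211 in the other cells, and Gpnmb stood at 89.1 and 29.8. Fabp5, a fatty acid carrier, stood at 981.8 in members and 502.8 in the other cells. Arg1 and Spp1, genes of many tumour macrophages, differed little: Arg1 stood at 9283 in members and 9611 in the other cells, and Spp1 at 2403 and 2919. Over 22 lipid-associated and hypoxic genes the median was 0.06, with 3 past 2-fold. Hmox1, which breaks down haem, stood at 258.4 in members and 163.0 in the other cells, and the ferritin chain Fth1 at 9547 and 11634.

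Of 12 folate and one-carbon genes measured, 1 passed 2-fold: Slc46a1, the proton-coupled folate transporter, with 26 UMIs in members, at 4.19 against 1.37 in the other cells. The median of that list was 0.04. Glycolysis genes differed little in size, with a median of -0.13 over 17 genes and none past 2-fold. Of the 17, 16 were lower in members, against 6072 of all 11985 genes.

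Both chemokine classes held genes in each direction. Among 12 CC chemokines Ccl8, Ccl12 and Ccl7 were higher in members by at least 2-fold, with Ccl7 at 935.2 in members and 444.3 in the other cells, while Ccl5 stood at 209.8 and 630.2 and Ccl22 at 3.71 and 8.49. Cxcl9, an interferon-gamma target that draws T cells, stood at 331.7 in members and 719.0 in the other cells. Of 9 CXC chemokines measured, 3 were lower by at least 2-fold and 1, Pf4, was higher.

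Of 21 inflammatory macrophage genes, 10 were lower in members by at least 2-fold and none higher, with a median log2 ratio of -0.97. Nos2, the inducible nitric oxide synthase, stood at 35.4 in members and 98.6 in the other cells. Tnf did not follow, at 25.1 in members and 19.4 in the other cells. Il6 and Il12b had 0 UMIs in members, which allows up to 0.483 UMIs per 1000000, and stood at 0.935 and 1.51 in the other cells.

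Of 18 monocyte genes, 11 were lower in members by at least 2-fold, with a median of -1.16. That median depended on the C1q minimum, at -0.73 with 0.5% of UMIs and -1.58 with 0.05%. Ccr2, the receptor that brings monocytes into tissue, stood at 96.0 in members and 288.9 in the other cells, and Ly6c2 at 53.6 and 161.6. T cells held 501.2 for Ly6c2, so RNA from other cells could carry part of a level this low, which was not tested. Fn1, fibronectin, stood at 1690.5 in members and 1523 in the other cells.

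Interferon responses were uneven. Of 24 interferon-gamma response genes 23 were lower in members, 4 of them by at least 2-fold, with a median of -0.61. Of 22 type I interferon response genes the median was -0.37, but 0.03 in barcodes ending in N1. Of these 22 genes, 3 were higher and 1 lower by at least 2-fold. Oasl1 stood at 21.3 in members and 6.12 in the other cells and Ifit2 at 12.6 and 5.47. Complement genes divided: C3 stood at 90.7 in members and 253.5 in the other cells and Cfb at 54.5 and 134.7, while C4b stood at 13.1 and 3.24 and the inhibitor Cd59a at 8.70 and 2.95.

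Among 30 transcription factors 3 were higher by at least 2-fold and none lower. Maf stood at 496.2 in members and 192.6 in the other cells, Bhlhe41 at 21.6 and 5.97 and Mef2c at 59.1 and 27.4. Cebpb stood at 452.9 in members and 766.8 in the other cells, and Hif1a at 89.7 and 140.0. The stress genes were mostly alike, with a median of 0.07 over 13 heat shock genes, though Hspa1a stood at 33.7 in members and 7.63 in the other cells. Immediate early genes had a median of -0.07 over 20 genes.

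Markers of most other cell types were lower in the members than in the other C1q-positive cells. Summed over 10 NK cell genes members held 184.3 UMIs per 1000000, against 365.6 in the other cells, over 12 B cell genes 45.8 and 90.2, over 11 neutrophil genes 84.3 and 263.5 and over 12 fibroblast genes 148.4 and 108.6. The neutrophil genes Ngp, Camp and Ly6g were at 0 in members and in the other cells. The fibroblast list was higher in members, with 5 of 5 measured genes above the other cells and none past 2-fold, and a median of 0.41, or 0.06 in lineage-checked cells. The red cell and platelet list was higher too, with 1 of 1 measured gene and a sum of 15.47 in members and 12.95 in the other cells. Their part in the differences above was not tested, but with both sets limited to lineage-checked cells the resident list's median was 1.48 and that of MHC class II was -1.33.

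Levels were next read over all C1q-positive non-cycling control cells by their summed Folr2, Cbr2 and Fcrls UMIs, with cells thinned to 2000 UMIs and shallower cells left out. That kept 1070 of 1310 cells with 0 UMIs of the 3 genes, 242 of 274 with 1, 123 of 129 with 2, and 192 of 200, 127 of 129 and 155 of 155 in the bins above. In bins of 0, 1, 2, 3 to 5, 6 to 10 and above 10 UMIs, Ccl8 stood at 60.7, 324.4, 321.1, 583.3, 1669 and 1929. The members fill the last 3 bins. Mrc1 stood at 216.8 in the lowest bin and 996.8 in the highest, and Igf1 at 12.6 and 129.0. H2-Ab1 ran the other way at every step, from 4848 in the lowest bin to 758.1 in the highest. Il1b was at 754.7 with 0 UMIs, 526.9 with 1, 203.3 with 2 and between 90.6 and 161.5 in the member bins. Csf1r had no such order, lying between 343.0 and 403.2. The bins were set on all UMIs, so deeper cells lie further to the right: the median was 5621 UMIs in the lowest bin and 16029 in the highest.

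**Figure D4:**
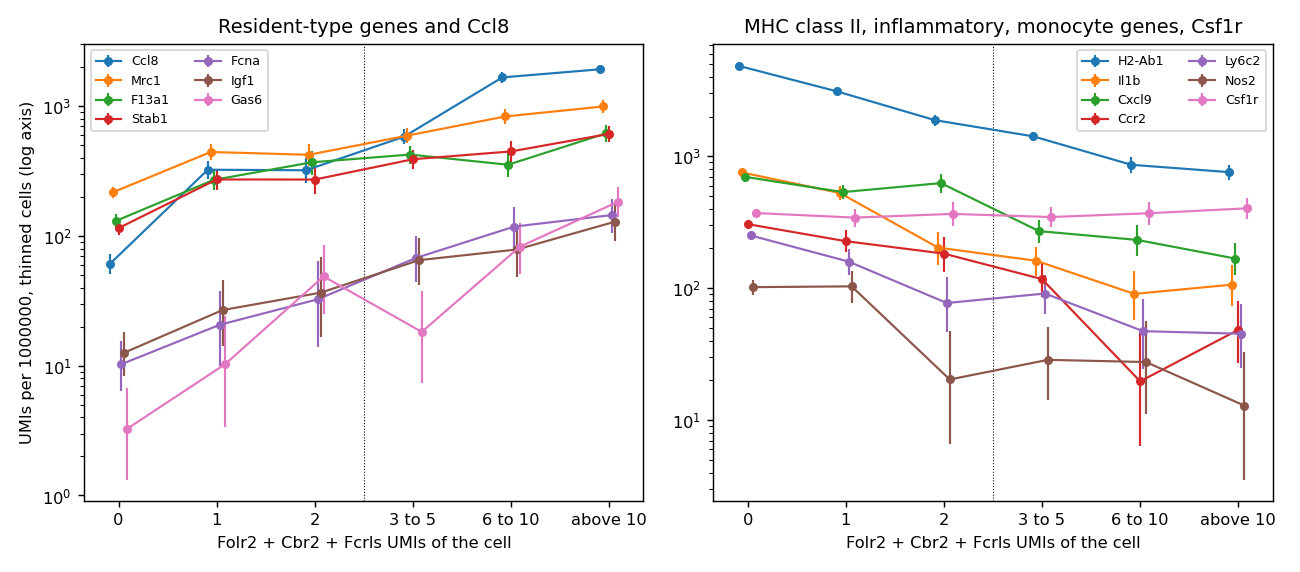
Levels of 14 genes (UMIs per 1000000, log axis, cells thinned to 2000 UMIs, exact Poisson 95% intervals) by the summed Folr2, Cbr2 and Fcrls UMIs of C1q-positive non-cycling control cells, with Folr2 Cbr2 macrophages right of the dotted line. Ccl8 lies at 60.7 in the lowest bin and 1929 in the highest, H2-Ab1 at 4848 and 758.1, and Csf1r stays between 343.0 and 403.2.

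The members were not uniform. Ccl8 had a UMI in 311 of 484 members (64.3%), and the 48 cells with the most UMIs of it held 65.7% of them. In cells thinned to 2000 UMIs, Ccl8 was seen in 44.1% of members (39.6 to 48.7), 8.36% of other C1q-positive cells and 4.01% of T cells, whose median depths before thinning were 11136.5, 6114 and 5361 UMIs. Retnla was narrower still: 56 members carried it, and 48 cells held 99.3% of its 1075 UMIs. Its high summed level is therefore the level of a few cells. Apoe, at the other end, had a UMI in every one of the 484 members, and Mrc1 in 454. Without thinning, Apoe also had a UMI in 91.7% of other C1q-positive cells and 71.5% of T cells.

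MHC class II split the members. The 158 members with the most MHC class II UMIs after thinning and the 158 with the fewest were set side by side, with H2-Ab1 at 2585 and 148.7 by construction. The second value lies below the 562.0 of the T cells. Ccl8 was somewhat higher in the MHC class II-rich members, at 1443 (1314 to 1582), than in the MHC class II-poor ones, at 1174 (1058 to 1300). C1qa was close in both, at 3864 and 4070. Retnla stood at 344.9 in the rich members and 6.33 in the poor ones, Ly6c2 at 136.1 and 12.7, Cxcl9 at 417.7 and 79.1 and Mgl2, a galactose lectin, at 354.4 and 161.4.

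The MHC class II-poor members held more of several resident-type transcripts. Stab1 stood at 246.8 in the rich members and 667.7 in the poor ones, Pf4 at 2051 and 5104, F13a1 at 310.1 and 598.1 and Pmp22 at 44.3 and 221.5. Folr2 itself stood at 307.0 in the rich members and 550.6 in the poor ones. Igf1 and Selenop did not follow, with intervals that overlapped. Igf1 stood at 98.1 in the rich members and 75.9 in the poor ones, and Selenop at 234.2 and 265.8. Gpnmb, of the lipid list, stood at 12.7 in the rich members and 107.6 in the poor ones.

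Split by the summed CC chemokines instead, the 158 chemokine-rich members held Retnla at 183.5, against 6.33 in the 158 chemokine-poor ones, Gas6 at 145.6 and 50.6 and Cxcl9 at 107.6 and 319.6. Fcrls was close in both, at 243.7 and 272.2. Folr2 was higher in the chemokine-rich members, at 604.4 against 329.1, and so was Cbr2, at 357.6 against 155.1. Split by lipid-associated and hypoxic genes, the 158 members richest in them held Igf1 at 126.6, against 34.8 in the 158 poorest, and Retnla at 28.5 and 319.6.

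**Figure D5:**
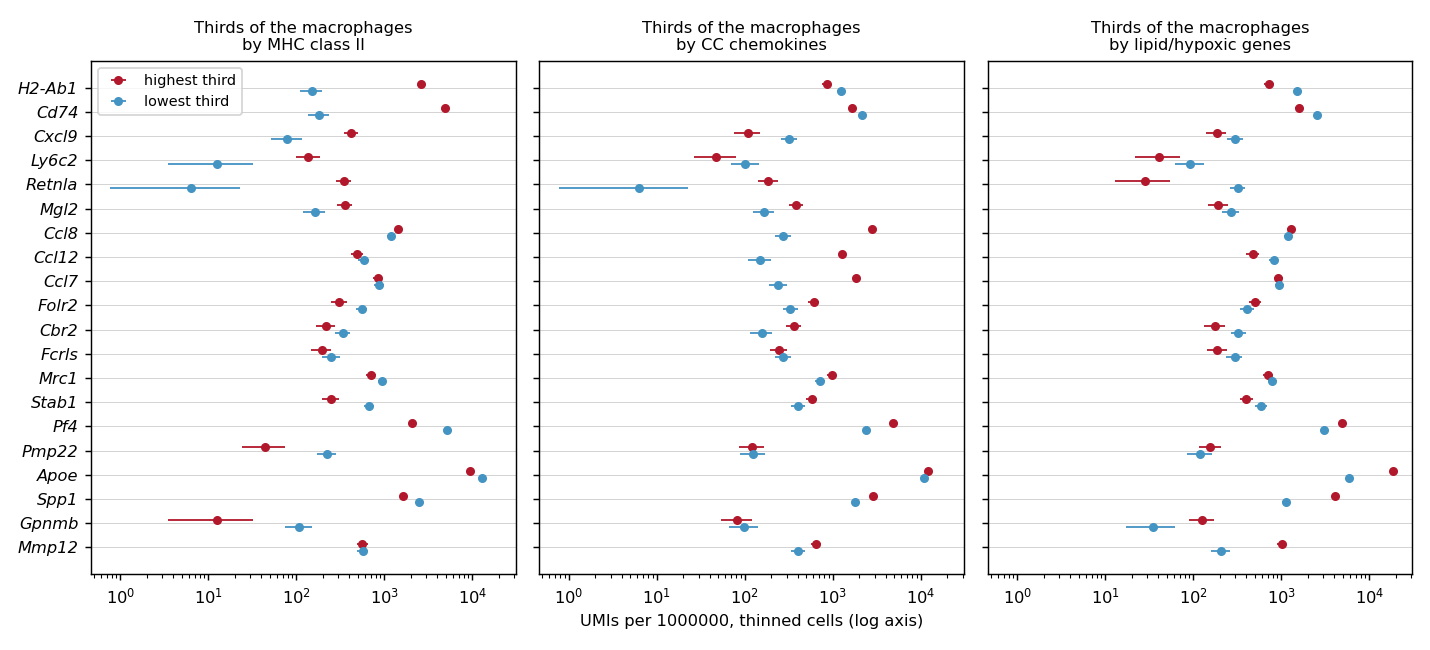
Levels of 20 genes (UMIs per 1000000, log axis, cells thinned to 2000 UMIs, exact Poisson 95% intervals) in the 158 Folr2 Cbr2 macrophages with the most UMIs (red) and the 158 with the fewest (blue) of MHC class II genes, CC chemokines and lipid-associated and hypoxic genes. Retnla lies at 344.9 and 6.33 in the MHC class II split, 183.5 and 6.33 in the chemokine split and 28.5 and 319.6 in the lipid split.

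Lyve1 marked a small set of 27 members, with a median of 8291 UMIs against 11295 in the 457 without it. Fcna stood at 309.5 in the Lyve1-carrying members and 80.1 in the others, Stab1 at 800.0 and 380.1, Gas6 at 223.9 and 69.1 and Cbr2 at 546.5 and 211.1. C4b stood at 148.1 in the 27 members, 9 of which carried it, and 6.10 in the others. Arg1 stood at 6169.6 in the Lyve1-carrying members and 9443 in the others. Cxcl9 stood at 56.0 in the Lyve1-carrying members and 345.9 in the others, but 33.3% and 39.8% of cells carried it. Over all 484 members, 48 cells held 87.9% of the Cxcl9 UMIs, so its level rests on few cells. Cd209f was seen only among the 27, in 4 cells, and all but 1 of the 35 Cd209d UMIs lay in a single cell.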

How the data were processed

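Single-cell RNA libraries of 1 PBM pool and 1 control pool were analysed. Values are unnormalized UMI counts as deposited by the authors, in a matrix written by PISA per the file headers; Cell Ranger 7.2.0 and the build mm10 are named in the submitters' processing notes, and which tool did what is not given in the sources used here. Barcodes held at least 1002 UMIs and all were kept. The libraries share 1991 barcode names, which are running numbers and not sequences. Members and gene lists were chosen with earlier results of these data known.

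UMIs were summed per set of cells and scaled to 1000000. Levels have exact Poisson 95% intervals, shares Clopper-Pearson intervals and log2 ratios exact conditional binomial intervals, which cover counting error only. A count of 0 allows up to 3 counts. With 1 library per group no test was made. Genes with at least 20 UMIs over both sets were compared, and a gene passed at a log2 ratio of at least 1 in size. Named genes followed the rule given with their values, leaving out the genes that chose the cells and mitochondrial, ribosomal protein, antigen receptor and predicted genes; list examples were chosen with their values known. Lineage-checked cells had at least 3 UMIs of 6 macrophage genes and at most 0.2% of UMIs from 20 genes of other lineages. The cells chosen for Nos2 and Cxcl9 were the other C1q-positive cells with at least 3 UMIs of those 2 genes together. The Ly6c2 Ccr2 set had at least 3 UMIs of those 2 genes and C1q under 0.1%, and was not cleared of lymphocytes. T cells had at least 3 UMIs of Cd3d, Cd3e and Cd3g, and B cells at least 3 of Cd79a, Cd79b and Ms4a1 with at most 1 Cd3 UMI, both with C1q under 0.1%.

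Scrublet in scanpy 1.11.5 called 880 doublets in the PBM library (6.3%, 11.2% expected) and 109 in the control library (0.97%, 8.99% expected), and they were removed only as an alternative. Other software was Python 3.11.15, numpy 2.4.6, scipy 1.17.1 and pandas 2.3.3. Interval code was tested on simulated data. Promoter sequences are from RefSeq, GRCm38.p6.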

Additional observations from a re-analysis of the deposited data

How the results depend on the processing

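Members in the PBM library stayed at 0 under each of the 10 alternatives for shares. The control share of all barcodes (4.31%) was 5.45% with at least 2 Folr2, Cbr2 and Fcrls UMIs, 3.03% with at least 5, 3.73% with C1q at 0.5%, 4.81% in barcodes ending in N1, 5.17% with membership after thinning and 5.03% with Cd3 at most 0.02% of UMIs, an alternative chosen after seeing the data. The share of C1q-positive cells (22.03%) was 27.9%, 15.5%, 37.7%, 15.5% with C1q at 0.05%, 25.6% in lineage-checked cells, 26.1% after thinning and 24.6% with the Cd3 alternative. Genes higher past 2-fold (427) numbered 175 with at least 100 UMIs and 5088 with no minimum. Genes lower (504) numbered 283 with C1q at 0.5%, 1054 with C1q at 0.05%, 918 with the mean of per-cell levels, 190 with at least 100 UMIs and 1171 with no minimum. List medians moved to 1.27 for resident genes and -0.40 for the interferon-gamma response in barcodes ending in N1, to -1.93 for MHC class II after thinning, and for glycolysis to -0.037 with C1q at 0.05% and -0.019 with per-cell means. The type I interferon median (-0.37) was 0.03 in barcodes ending in N1. That of the monocyte genes (-1.16) was -0.73 with C1q at 0.5% and -1.58 with C1q at 0.05%. The cause was not tested. Of 480 values of the 30 named genes 145 moved, while signs were kept in all 480 and in 389 of 416 list medians. The log2 ratio of Retnla (2.85) ranged from 2.39 with membership after thinning to 4.83 with at least 2 UMIs, that of Gas6 (3.46) from 2.98 in barcodes ending in N1 to 4.76 against cells with no Folr2, Cbr2 or Fcrls UMI, and that of Inhba (-2.31) from -2.65 after thinning to -1.28 in barcodes ending in N1. Ccnd2 was at -0.96 with membership after thinning and Cxcl2 at -1.17 with the Cd3 alternative. No paired analysis was possible because each group is 1 library, and no library could be left out for the same reason.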

Other observations

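In the control library 830 barcodes had at least 3 UMIs of Folr2, Cbr2 and Fcrls, of which 484 were members. Another 202 met the C1q minimum but held 2 or more Cd3 UMIs, with a median of 23354 UMIs, and Scrublet called 7 of them. A further 94 held 2 or more Mki67 and Top2a UMIs, with a median of 17264 UMIs, and 50 lay below the C1q minimum, with a median of 31653. Members had a median of 11136.5 UMIs, so each set left out was deeper than the members. In the PBM library 2 barcodes had at least 3 UMIs of the 3 genes, and both lay below the C1q minimum.

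Among the 37 C1q-positive non-cycling PBM barcodes, Ccl8 stood at 123.4 UMIs per 1000000, from 13 UMIs in 4 barcodes, against 432.9 in the 2197 control barcodes. Mrc1 stood at 47.5 in the PBM barcodes and 402.1 in the control barcodes, and Apoe at 1253 and 6376. Csf1r was close in both, at 370.2 in the PBM barcodes and 374.4 in the control barcodes.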
